A study of Homo sapiens with 18 samples.

Results

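Histone lysine demethylases are the enzymes that take methyl groups off lysines in histone tails, and the transcripts of 10 of them were followed here in myeloma cells given the ferroptosis inducer RSL3. The 10 genes, KDM6B, KDM6A, KDM1A, KDM2A, KDM2B, KDM3A, KDM4A, KDM4B, KDM5B and KDM7A, were taken by symbol from the 43735 genes of the count table, in which each symbol had a row, and all 10 passed the filter on low counts that left 14281 genes. RNA sequencing libraries came from MM1S, a human multiple myeloma line that responds to glucocorticoids, and from MM1R, its glucocorticoid-resistant counterpart. Each line gave 3 untreated libraries, 3 of an RSL3 treatment (5 µM, 3 h) and 3 in which the same RSL3 treatment followed Fer-1 (ferrostatin-1, 2 µM, 2 h). RSL3 blocks GPX4, the enzyme that detoxifies lipid peroxides, and Fer-1 traps the radicals that spread lipid peroxidation. The labels name no vehicle for the untreated cells, and no library held Fer-1 alone, so that the effect of Fer-1 on its own cannot be told apart from that of Fer-1 with RSL3. Replicates 1, 2 and 3 were passages 4, 6 and 7 of MM1R and passages 16, 22 and 23 of MM1S. Each line is a single cell line, so differences between MM1R and MM1S are differences between 2 cultures and not between classes of myeloma.

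Most of these enzymes carry a Jumonji C domain, which oxidizes the methyl group with iron and 2-oxoglutarate, whereas KDM1A is a flavin-dependent amine oxidase. KDM6A and KDM6B remove methylation from the lysine 27 residue of histone H3, a mark placed by the Polycomb repressive complex PRC2, and KDM7A acts on lysines 9 and 27. KDM3A, KDM4A and KDM4B act on lysine 9, the mark of compact chromatin, and the KDM4 enzymes also act on lysine 36. KDM2A and KDM2B bind CpG-rich promoters and act on lysine 36, and KDM1A and KDM5B take methyl groups off lysine 4, the mark of promoters and enhancers. Transcript levels say nothing of the activity of these enzymes or of the histone marks, which were not analysed here.

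Starts of the genes whose transcripts the results turn on are shown first, from RefSeq on GRCh38.p14, as 250 bases before to 50 bases after the annotated start, 5′ to 3′ on the gene's strand. All 10 genes had an entry, with 16 starts between them. KDM4A was the gene that moved furthest from its untreated level relative to its error. KDM6A and KDM3A were higher with RSL3 in every passage, as was KDM2A, whose starts are not shown. KDM6B had the largest averaged fold change with RSL3, although it was not called. On the log2 scale its change fell from 0.99 to 0.39 without MM1S RSL3 replicate 1. Capitals mark matches to any of 6 stress-responsive motifs searched on both strands.
KDM4A, chr1:43649899-43650198, plus strand: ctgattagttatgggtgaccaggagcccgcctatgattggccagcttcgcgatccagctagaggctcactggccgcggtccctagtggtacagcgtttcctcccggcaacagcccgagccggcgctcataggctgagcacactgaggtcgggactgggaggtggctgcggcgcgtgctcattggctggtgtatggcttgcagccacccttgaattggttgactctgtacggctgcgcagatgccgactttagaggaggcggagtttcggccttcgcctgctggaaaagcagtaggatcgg
KDM6A, chrX:44872938-44873237, plus strand: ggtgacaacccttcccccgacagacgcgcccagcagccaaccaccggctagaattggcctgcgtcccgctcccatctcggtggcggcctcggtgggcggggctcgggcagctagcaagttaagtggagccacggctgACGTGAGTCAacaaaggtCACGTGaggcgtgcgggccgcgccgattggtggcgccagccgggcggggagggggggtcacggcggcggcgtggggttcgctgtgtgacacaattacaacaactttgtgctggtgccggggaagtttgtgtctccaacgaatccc
KDM3A, chr2:86441211-86441510, plus strand: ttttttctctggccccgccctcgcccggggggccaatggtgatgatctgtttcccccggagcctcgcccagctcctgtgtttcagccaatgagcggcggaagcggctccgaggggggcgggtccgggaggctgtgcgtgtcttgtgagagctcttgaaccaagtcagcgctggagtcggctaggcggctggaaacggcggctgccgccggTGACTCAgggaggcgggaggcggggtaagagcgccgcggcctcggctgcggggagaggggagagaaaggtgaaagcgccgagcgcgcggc
KDM6B, chr17:7833967-7834266, plus strand: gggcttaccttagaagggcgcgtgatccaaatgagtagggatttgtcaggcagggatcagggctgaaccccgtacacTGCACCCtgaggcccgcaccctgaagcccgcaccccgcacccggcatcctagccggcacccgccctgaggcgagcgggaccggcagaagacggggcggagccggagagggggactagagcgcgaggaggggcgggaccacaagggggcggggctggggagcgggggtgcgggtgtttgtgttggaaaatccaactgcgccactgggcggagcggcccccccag
The motifs were the cAMP response element TGACGTCA (in 1.85% of 35114 such windows), the AP-1 site TGANTCA (7.71%), the antioxidant response element core TGACNNNGC (13.3%), the hypoxia response core ACGTG (21.4%), the metal response core TGCNCNC (55.9%) and the heat shock unit pair GAANNTTC (6.77%). Among the 16 windows of the demethylases, 2 held an AP-1 match (KDM6A and the second start of KDM3A, shown), 5 a hypoxia core, 9 a metal core, 1 a heat shock pair and 0 either of the other motifs. The window of the first KDM3A start, not shown, held 0 matches, and neither window of KDM2A held an AP-1 match. In KDM6A the AP-1 match, from base -110 to -104, shared bases with a hypoxia core from -113 to -109, and a second hypoxia core lay on each strand between -95 and -90. The KDM4A window held none of these letters, which says nothing about any factor. The KDM6B window shown, of the first of its 2 starts, held a metal core from -173 to -167. A match describes the letters and not a site in use.

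Total counts per library lay between 17635438 and 19368343. Levels are CPM, counts scaled to a common library size with TMM factors. The lines carried the transcripts of plasma cells, with SDC1 (syndecan-1) at 371 to 925 CPM and XBP1 at 1108 to 1649 CPM over all libraries, although the plasma cell marker CD27 was at no more than 0.364 CPM. Of 9 plasma cell markers tested, SDC1 and TNFRSF17 fell and CD38 rose with RSL3 (averaged over the lines, FDR under 0.05, edgeR's quasi-likelihood test). In that comparison 15.5% of all genes were called, and 4 of the 9 had an unadjusted p under 0.05. DESeq2 called 2 of the 9 higher and 2 lower, and 2732 genes in all. When the model also held the passages, PRDM1 was called too, with 2 higher and 2 lower, against 30.4% of all genes. Among markers of other blood cells, MS4A1, PAX5, CD14 and LYZ were at 0 to 0.455 CPM, CD3E, HBB and NCAM1 lay between 2.57 and 12.7 CPM, and 0 of these last 3, the ones tested, changed with RSL3 (0 at an unadjusted p under 0.05, 0 by DESeq2). A library stood apart by its transcripts, the one labelled as replicate 2 of MM1R with Fer-1 + RSL3. For 18 genes chosen as at least 8-fold higher in MM1S than in the other MM1R libraries, its position between the MM1R and MM1S means was compared. Its median position was 45.7% of the way to MM1S. The other MM1R libraries lay at -0.846 to 3.19%, which largely follows from the choice of genes, made without this library. Its level of NR3C1, the glucocorticoid receptor gene, was 50.2 CPM against 13.8 to 22.3 CPM in the other MM1R libraries. The library MM1S RSL3 replicate 1 had the lowest TMM factor, 0.864 in a range up to 1.06, and the most extreme value of several demethylases. Values without both libraries are given beside the averaged calls that they changed.

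Per kilobase of merged exons, the 10 transcripts spanned a wide range of levels. In untreated MM1S cells, KDM2A was the most abundant with 28.9 ± 2.49 CPM per kb (SD, n = 3), followed by KDM4A with 10.6 ± 1.77. KDM3A (5.63 ± 0.658), KDM4B (5.45 ± 0.322) and KDM1A (4.76 ± 0.442) had SD ranges that overlapped. KDM2B (2.77 ± 0.165) stood below them, and KDM6B (1.66 ± 0.173), KDM6A (1.51 ± 0.0665) and KDM7A (1.24 ± 0.211) formed a lower set in which the SD range of each met that of its neighbour. KDM5B was the lowest, with 0.162 ± 0.106 CPM per kb. The lengths are those of all annotated exons merged, up to 27742 bases for KDM6A, which lowers the value of genes with many alternative exons.

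**Figure D1:**
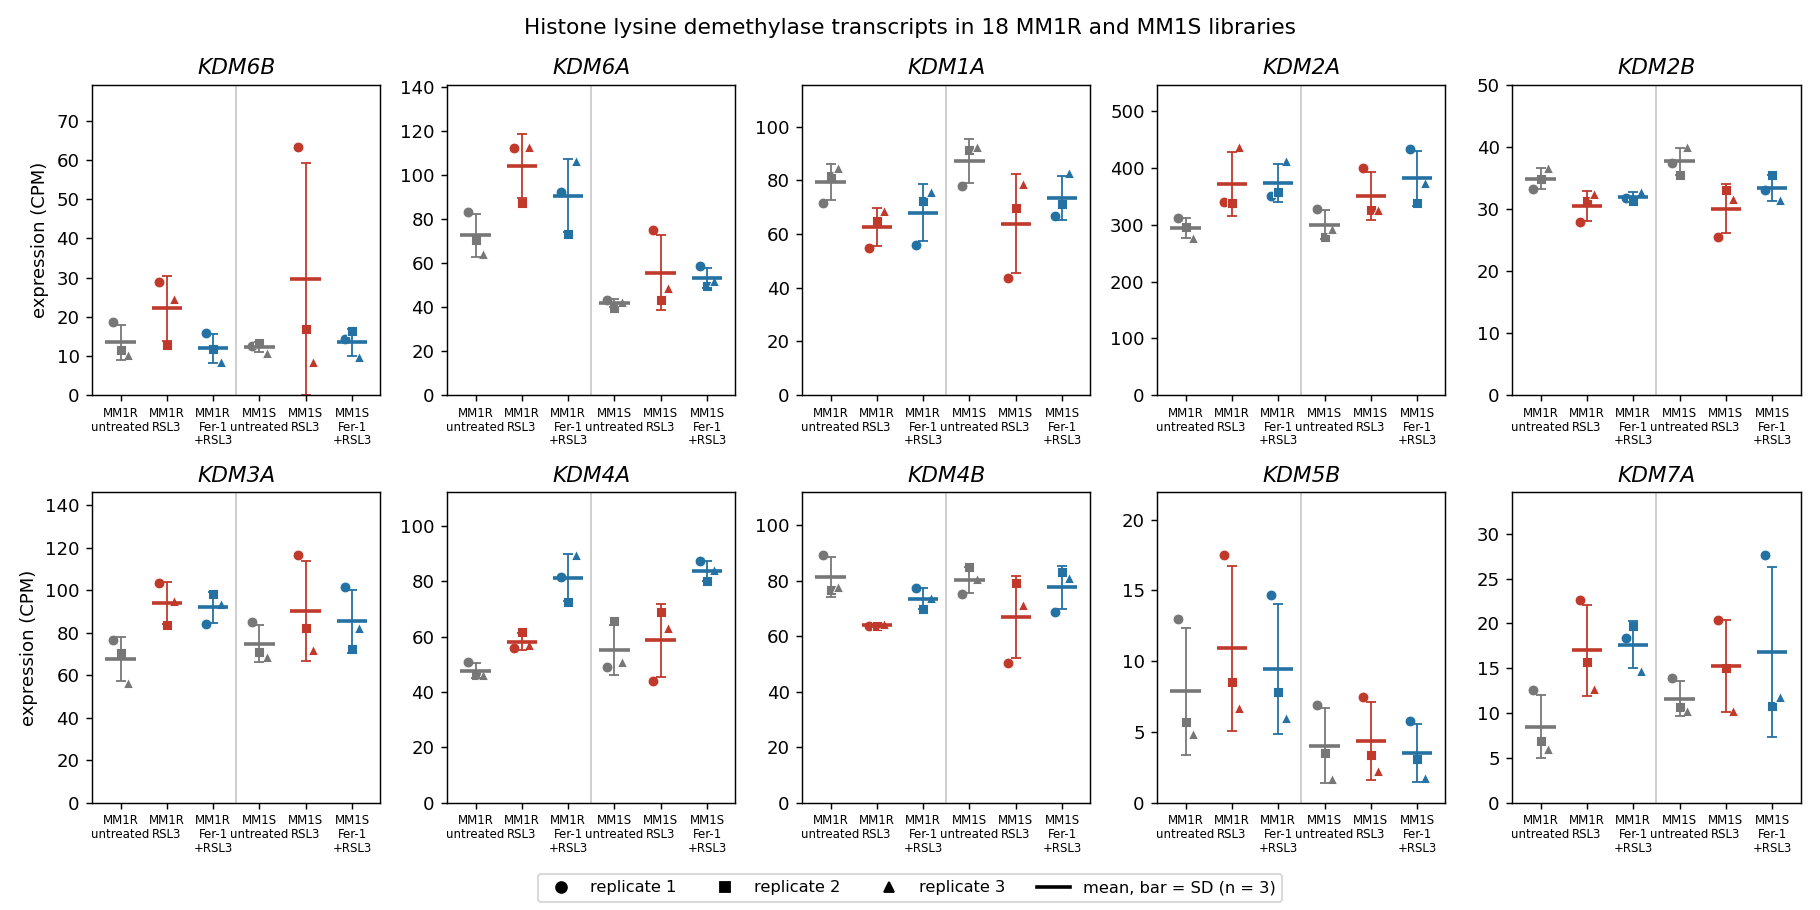
Expression of the 10 demethylase genes in CPM (y axis, from 0) in each of the 6 groups (x axis), with 1 point per library, the mean as a thick line and the SD as an error bar (n = 3). The 6 Fer-1 + RSL3 points of KDM4A, from 72.6 to 89.7 CPM, all lie above its other 12, and 1 RSL3 point of KDM6B in MM1S, at 63.4 CPM, lies far above the other 2 of its group.

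The comparison of RSL3 with untreated cells asks how these transcripts respond to ferroptosis induction. Averaged over both lines, 3 of the 10 demethylase transcripts were higher after RSL3 (KDM6A, KDM2A and KDM3A) and 3 were lower (KDM1A, KDM2B and KDM4B). In bulk RNA, a response of all cells and a larger one of some cells cannot be told apart, nor fewer cells of a state from less RNA per cell. The called changes were small, from a fall by 0.39 to a rise of 0.47 on the log2 scale. These 6 of 10 calls (FDR under 0.05, quasi-likelihood test of edgeR, Benjamini-Hochberg adjusted over 14281 genes) stand beside 15.5% of all genes tested. The median log2 fold change was 0.28 over the 10 genes and -0.0001 over all genes, and the median size of the change was 0.34 and 0.20. In the lines taken separately, 0 of the 10 were called in MM1R (background 3.36%, 5 with an unadjusted p under 0.05, 0 by DESeq2) and 0 in MM1S (3.67%, 4 with an unadjusted p under 0.05, 1 by DESeq2, KDM2B). Over all 14281 genes, 2639 in MM1R and 2779 in MM1S had an unadjusted p under 0.05, and DESeq2 called 944 and 1032.

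The same 6 genes lay on one side of their untreated level in all 6 passages. KDM6A, KDM2A and KDM3A were above it in each passage, as were 13.8% of all genes, and KDM1A, KDM2B and KDM4B were below it in each passage, as were 14.8%. The ratios come from the libraries that gave the calls, so this pattern is not separate support for them. Since a passage gave a library of every treatment, the fit was repeated with the passage as a block. Then 9 of the 10 were called in the averaged comparison, all but KDM4A, with a background of 30.4%, and 6 in MM1R (KDM6A, KDM2A, KDM3A, KDM4B, KDM5B and KDM7A, background 13.1%) and 2 in MM1S (KDM1A and KDM2B, background 13.3%). The calls without the block had an FDR of 0.0231 to 0.0499 and changed with the libraries fitted, also with some outside the comparison. The averaged count rose to 8 without MM1S RSL3 replicate 3 and fell in other fits. Where no count over all genes stands beside a member count, it describes that fit only and not the demethylases. The averaged count was 0 without MM1R untreated replicate 2 or MM1R RSL3 replicate 1. Calls over all genes were then 1563 and 1405, against 2215 with all libraries. The member count was 1 without replicate 3 of untreated (1907 over all genes) or RSL3-treated MM1R cells (1790), or replicate 2 or 3 of untreated MM1S cells. It was 3 without untreated MM1S replicate 1 (1608 over all genes). It was also 3 without replicate 2 or 3 of the Fer-1 + RSL3 group of either line (2086 and 2069 in MM1R). The member count was 2 (KDM6A and KDM4A) without MM1S RSL3 replicate 1 and also without both libraries that stand apart (1708 over all genes). It was 1 (KDM6A) when only the 12 libraries of these groups were fitted (1660 over all genes).

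KDM6A and KDM6B, the demethylases of the Polycomb mark, differed in how evenly they responded. KDM6A (UTX), a subunit of the KMT2C/KMT2D methyltransferase complexes, stood at 83.3, 70.7 and 64.1 CPM in untreated MM1R libraries (replicates 1, 2 and 3), at 112, 87.4 and 113 CPM with RSL3 and at 92.6, 73.4 and 106 CPM with Fer-1 and RSL3. In MM1S it was at 43.2, 39.7 and 42.6 CPM without treatment, at 75.2, 43.4 and 48.6 CPM with RSL3 and at 58.6, 49.5 and 51.8 CPM with Fer-1 and RSL3. In both lines every RSL3 library lay above every untreated one, in MM1S by as little as 43.4 against 43.2 CPM. How many of all genes separate in this way within a line was not counted. Separation or overlap of groups, here and below, is a description and not support for a call. The averaged log2 fold change of KDM6A with RSL3 was 0.47 (SE 0.13, FDR = 0.0231), with within-passage ratios of 0.13 to 0.81 on the log2 scale. Without MM1S RSL3 replicate 1 and MM1R Fer-1 + RSL3 replicate 2 it was 0.33 (FDR = 0.027). The gene lies on hg19 chromosome X (44732434 to 44972024, plus strand). KDM6A was also the 1 member that differed between the untreated lines.

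KDM6B (JMJD3), the inducible member of the pair, had the largest averaged fold change with RSL3 and did not pass the test, while in MM1R alone KDM7A had a larger one (1.00 against 0.71). Its levels in MM1R were 18.7, 11.7 and 10.2 CPM without treatment, 29.0, 12.9 and 24.7 CPM with RSL3 and 15.8, 11.7 and 8.41 CPM with Fer-1 and RSL3. In MM1S they were 12.6, 13.3 and 10.8 CPM, then 63.4, 17.0 and 8.59 CPM with RSL3, and 14.4, 16.5 and 9.75 CPM with Fer-1 and RSL3. A single RSL3 library of MM1S stood far above the other libraries of its group, the third lay below all untreated ones of that line, and the groups overlapped in both lines. Within passages, the log2 ratios of KDM6B were 0.63, 0.14 and 1.27 in MM1R and 2.32, 0.35 and -0.33 in MM1S. The averaged log2 fold change was 0.99 (SE 0.36, 95% interval 0.23 to 1.75, FDR = 0.0737), and it was 0.82 with the passage block (FDR = 0.0461). In MM1S alone it was 1.27 (SE 0.51, FDR = 0.184) with MM1S RSL3 replicate 1 and 0.06 (FDR = 0.973) without this library and MM1R Fer-1 + RSL3 replicate 2, and the averaged value was then 0.39 (FDR = 0.352), below the 0.56 of KDM7A in the same fit (FDR = 0.178). With no filter on low counts KDM6B was called in MM1R (FDR = 0.0125), in MM1S (FDR = 6.1e-08) and averaged (FDR = 3.31e-10). Its counts, 154 to 964 per library, passed the filter in the main fit too, so the filter removed no reads of KDM6B. Calls over all genes were then 1014, 1214 and 2605, against 480, 524 and 2215. Why its FDR moved so far was not tested, and the overlap of its groups stays.

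The genes whose log2 CPM followed that of KDM6B most closely over the 18 libraries were LATS2, a Hippo pathway kinase (Pearson r = 0.937), RAB9A, an endosomal GTPase (0.931), MCL1, an anti-apoptotic BCL2 relative (0.930), TP53INP2, an autophagy factor (0.922), and LOC107984338 (0.921). Without the libraries MM1S RSL3 replicate 1 and MM1R RSL3 replicate 1, in which KDM6B was highest, r over the remaining 16 was 0.827, 0.762, 0.771, 0.720 and 0.773. The points share libraries, treatments and scaling, and these values are a description. Among the members, KDM1A ran most strongly against KDM6B (r = -0.82 over 18 libraries and -0.51 over 16).

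KDM7A pairs a PHD finger, which reads histone tails, with a Jumonji domain, and its levels were low. It was at 12.5, 6.92 and 6.02 CPM in untreated MM1R libraries, at 22.6, 15.7 and 12.7 CPM with RSL3 and at 18.4, 19.8 and 14.8 CPM with Fer-1 and RSL3. In MM1S it was at 13.9, 10.7 and 10.2 CPM, at 20.4, 15.0 and 10.2 CPM and at 27.7, 10.8 and 11.8 CPM. In MM1R both treated groups lay above the untreated one, and in MM1S the groups overlapped. With RSL3 the averaged log2 fold change was 0.69 (SE 0.25, FDR = 0.0725), and with the passage block it was 0.68 (FDR = 0.00381). In MM1R alone it was 1.00 (SE 0.36, FDR = 0.140), and 1.02 with the block (FDR = 0.00845).

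The lysine 9 demethylases did not move as a set. KDM3A, known as a hypoxia-inducible gene, was at 76.5, 70.4 and 56.2 CPM in untreated MM1R libraries, at 104, 83.5 and 94.8 CPM with RSL3 and at 84.2, 98.3 and 93.4 CPM with Fer-1 and RSL3. In MM1S it was at 84.9, 71.1 and 68.7 CPM, at 117, 82.3 and 72.0 CPM and at 102, 72.3 and 82.0 CPM. Treated and untreated libraries were apart in MM1R and overlapped in MM1S, and the averaged log2 fold change with RSL3 was 0.37 (SE 0.12, FDR = 0.0496). Without both libraries that stand apart it was 0.26 and no longer called (FDR = 0.124). A pseudogene of KDM3A is annotated, so that its reads are uncertain where the copies agree. KDM4B went the other way, from 89.4, 76.6 and 77.8 CPM to 63.7, 63.5 and 64.5 CPM with RSL3 in MM1R and from 75.3, 84.8 and 80.6 CPM to 50.4, 79.1 and 71.3 CPM in MM1S. Its averaged log2 fold change was -0.30 (SE 0.09, FDR = 0.0387), with no overlap in MM1R and an overlap in MM1S. Without both libraries it was -0.21 and no longer called (FDR = 0.0711). KDM4A showed no call with RSL3 (log2 fold change 0.19, SE 0.10, FDR = 0.248), although the MM1R groups did not overlap, and it was called without both libraries (0.28, FDR = 0.0371).

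KDM2A and KDM2B, which share a CpG-binding zinc finger, moved in opposite directions with RSL3. KDM2A, the most abundant member per length, was at 312, 296 and 277 CPM in untreated MM1R libraries and at 340, 338 and 437 CPM with RSL3, and at 329, 279 and 294 CPM and 400, 326 and 326 CPM in MM1S. Its averaged log2 fold change was 0.28 (SE 0.09, FDR = 0.0499), at the edge of the threshold, and 0.23 without both libraries that stand apart (FDR = 0.112). KDM2B, which tethers the variant Polycomb complex PRC1.1 to CpG islands, was at 33.3, 34.9 and 36.7 CPM and at 27.9, 31.3 and 32.5 CPM in MM1R, and at 37.5, 35.6 and 40.1 CPM and 25.6, 33.1 and 31.6 CPM in MM1S. Its RSL3 and untreated libraries did not overlap in either line, and the averaged log2 fold change was -0.26 (SE 0.08, FDR = 0.0298). Without both libraries it was -0.20 and no longer called (FDR = 0.0718). Reads of KDM2B may include some of RNF34, which overlaps it on the other strand at 33.6 to 46.3 CPM, because the use of strand in counting is not given in the sources used here.

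The lysine 4 demethylases KDM1A and KDM5B also differed. KDM1A (LSD1), the catalytic subunit of the CoREST repressor complex, was at 71.7, 81.5 and 84.7 CPM in untreated MM1R libraries, at 54.8, 64.9 and 68.4 CPM with RSL3 and at 55.8, 72.3 and 75.7 CPM with Fer-1 and RSL3. In MM1S it was at 77.9, 91.3 and 92.4 CPM, at 43.4, 69.6 and 78.6 CPM and at 66.6, 71.2 and 82.6 CPM. The RSL3 libraries of MM1R lay below the untreated ones, while in MM1S replicate 3 overlapped them. The averaged log2 fold change was -0.39 (SE 0.13, FDR = 0.0437), and without both libraries that stand apart it was -0.28 and no longer called (FDR = 0.0785). The unpaired levels of KDM5B separated by replicate, and its treatment groups overlapped in both lines: replicate 1 held 13.0, 17.5 and 14.7 CPM in MM1R (untreated, RSL3, Fer-1 and RSL3) against 4.87 to 8.50 CPM in the other replicates, and 6.89, 7.49 and 5.76 CPM in MM1S against 1.71 to 3.50 CPM. Its averaged log2 fold change with RSL3 was 0.29 (SE 0.41, 95% interval -0.58 to 1.16, FDR = 0.700), and with the passage block it was 0.31 (SE 0.09, FDR = 0.0230). Its within-passage log2 ratios were 0.43, 0.56 and 0.45 in MM1R and 0.12, -0.059 and 0.37 in MM1S, above 0 in 5 of 6 passages.

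**Figure D2:**
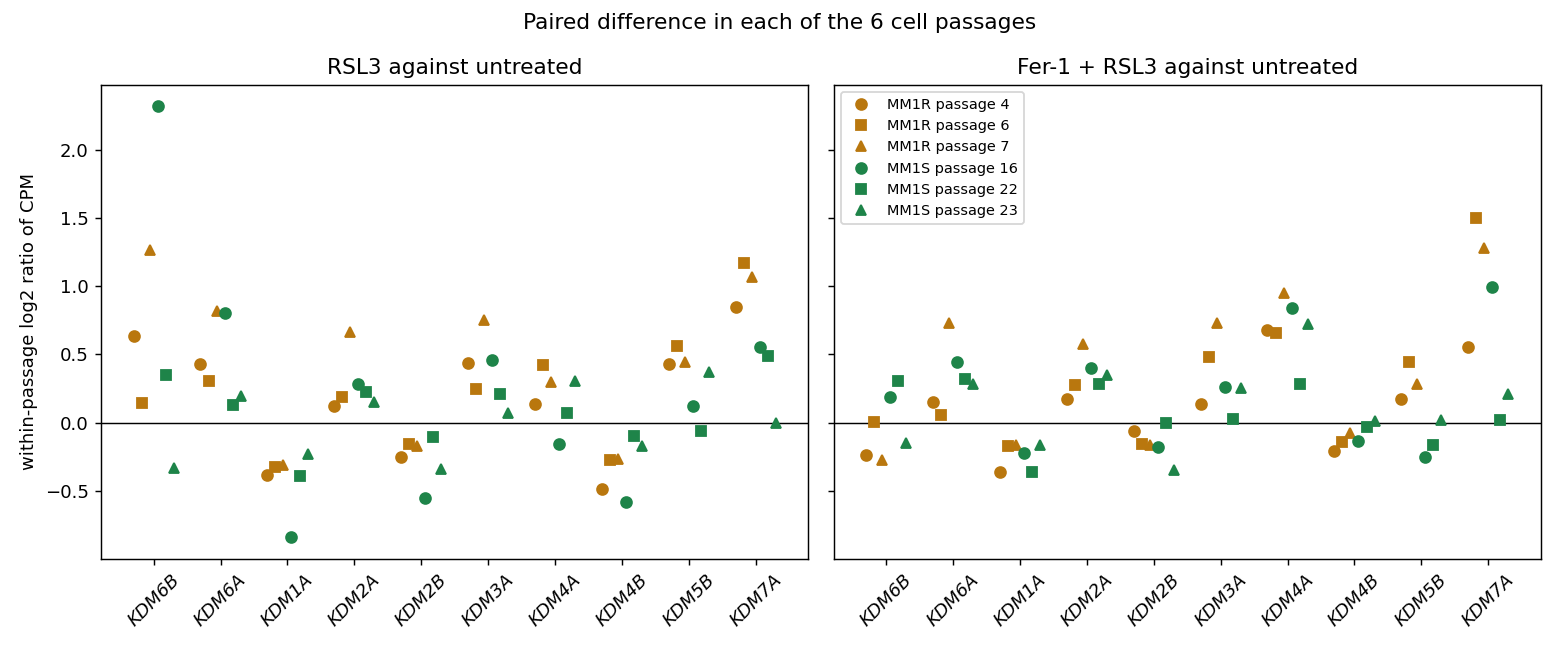
Within-passage log2 ratios of CPM (y axis) for each demethylase gene (x axis), RSL3 against untreated on the left and Fer-1 + RSL3 against untreated on the right, with 1 point for each of 6 passages (MM1R in orange, MM1S in green). On the left, KDM6A, KDM2A and KDM3A lie above 0 in all 6 passages and KDM1A, KDM2B and KDM4B below it, and on the right, KDM4A lies between 0.28 and 0.95.

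The response to RSL3 was compared between the lines as the difference of the log2 fold changes, MM1R minus MM1S. None of the 10 genes passed this test (0 calls, background 0%, 0 with an unadjusted p under 0.05, 0 by DESeq2), and all genes tested gave an FDR of 0.9999 or more. Over all genes, 222 had an unadjusted p under 0.05. The intervals were wide, from -2.07 to 0.97 for KDM6B, -0.45 to 1.68 for KDM7A and -0.44 to 0.65 for KDM6A, so that differences of this size between the lines could not be seen with 3 libraries a group. KDM2B had an interval of -0.19 to 0.45 and KDM2A of -0.28 to 0.50.

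Pre-treatment with Fer-1 was compared with RSL3 alone to ask whether the changes depend on lipid peroxidation. None of the 10 genes was called in MM1R (background 0%, 1 with an unadjusted p under 0.05, 0 by DESeq2), in MM1S (background 0%, 2 with an unadjusted p under 0.05, 0 by DESeq2) or averaged over the lines (background 0.119%, 3 with an unadjusted p under 0.05, 1 by DESeq2). Over all genes, 881 in MM1R, 821 in MM1S and 1826 averaged had an unadjusted p under 0.05, and DESeq2 called 39, 7 and 230. The member nearest to the threshold was KDM4A, which was higher with Fer-1 and RSL3 than with RSL3 alone, by 0.50 on the log2 scale (SE 0.10, FDR = 0.0616). With the passage block it was called (0.51, FDR = 0.0223, 1 of 10 genes, background 2.37%). KDM6B had a log2 fold change of -1.01 (SE 0.36, 95% interval -1.77 to -0.24, FDR = 0.262), which became -0.40 (FDR = 0.709) without MM1S RSL3 replicate 1 and MM1R Fer-1 + RSL3 replicate 2. With no filter on low counts KDM6B was called in this comparison in both lines and averaged (FDR = 2.58e-10 averaged), and KDM4A averaged. Calls over all genes were then 271 in MM1R, 308 in MM1S and 571 averaged, against 0, 0 and 17 with the filter, which KDM6B passed. The other 8 genes had averaged log2 fold changes between -0.25 and 0.21. KDM4A, KDM1A and KDM4B lay above their RSL3 level in all 6 passages, as did 8.05% of all genes, and KDM5B lay below it in all 6, as did 6.56%.

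KDM4A, a demethylase of lysines 9 and 36, was the member called in both lines, in the cells that received both agents. It lies on hg19 chromosome 1 (44115820 to 44171189, plus strand). It was at 50.9, 46.0 and 46.3 CPM in untreated MM1R libraries, at 55.9, 61.6 and 56.8 CPM with RSL3 and at 81.5, 72.6 and 89.7 CPM with Fer-1 and RSL3. In MM1S it was at 48.9, 65.7 and 50.9 CPM, at 43.8, 69.0 and 63.1 CPM and at 87.3, 80.0 and 84.1 CPM. The 6 libraries with Fer-1 and RSL3 lay above all 12 others, a pattern that was looked for after its values were seen and that 30 genes (0.21%) showed. Against untreated cells the log2 fold change was 0.77 (SE 0.15, FDR = 0.00526) in MM1R, 0.60 (SE 0.15, FDR = 0.0267) in MM1S and 0.68 (SE 0.10, FDR = 0.000313) averaged. The averaged value stayed between 0.64 and 0.76 when any single library was left out, and it was called each time. In MM1S alone the call was lost without untreated replicate 1 or 3 or any Fer-1 + RSL3 library of that line, at an FDR of up to 0.130. The antisense gene KDM4A-AS1, which overlaps KDM4A, was at only 0.312 to 1.15 CPM.

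Against untreated cells, KDM4A was the single member called in MM1R (background 9.22%) and in MM1S (background 4.61%). Averaged over the lines, 3 of the 10 were called, all higher: KDM4A, KDM2A (log2 fold change 0.35, SE 0.09, FDR = 0.0149) and KDM7A (0.79, SE 0.25, FDR = 0.0361), with a background of 19%. KDM2A stood at 351, 358 and 413 CPM in MM1R and at 435, 339 and 373 CPM in MM1S with both agents, above every untreated library of its line. Without both libraries that stand apart, KDM6A was called as well (0.40, FDR = 0.0053). With the passage block, 4 were called in MM1R (KDM2A, KDM3A, KDM4A and KDM7A, background 22.2%), 2 in MM1S (KDM2A and KDM4A, background 14.7%) and 6 in the averaged comparison (also KDM6A, KDM1A and KDM3A, background 33.3%). KDM6A, KDM2A, KDM3A, KDM4A and KDM7A lay above their untreated level in all 6 passages, as did 17.1% of all genes, and KDM1A lay below it in all 6, as did 16%. The call of KDM7A rested on single libraries: its averaged value ranged from 0.51 to 0.99 with 1 library left out, was called in 11 of 18 such fits, and was lowest without MM1S Fer-1 + RSL3 replicate 1.

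Since the 2 RSL3 comparisons share the untreated libraries, the members' values are set side by side and not correlated. KDM2A was at 0.28 with RSL3 alone and 0.35 with Fer-1 and RSL3 on the log2 scale against untreated cells, KDM3A at 0.37 and 0.31, KDM6A at 0.47 and 0.34, and KDM7A at 0.69 and 0.79. The genes that fell with RSL3 had smaller values with Fer-1, KDM1A at -0.39 and -0.24, KDM2B at -0.26 and -0.15 and KDM4B at -0.30 and -0.10, differences that did not pass the test of Fer-1 + RSL3 against RSL3. KDM6B was at 0.99 and -0.02.

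**Figure D3:**
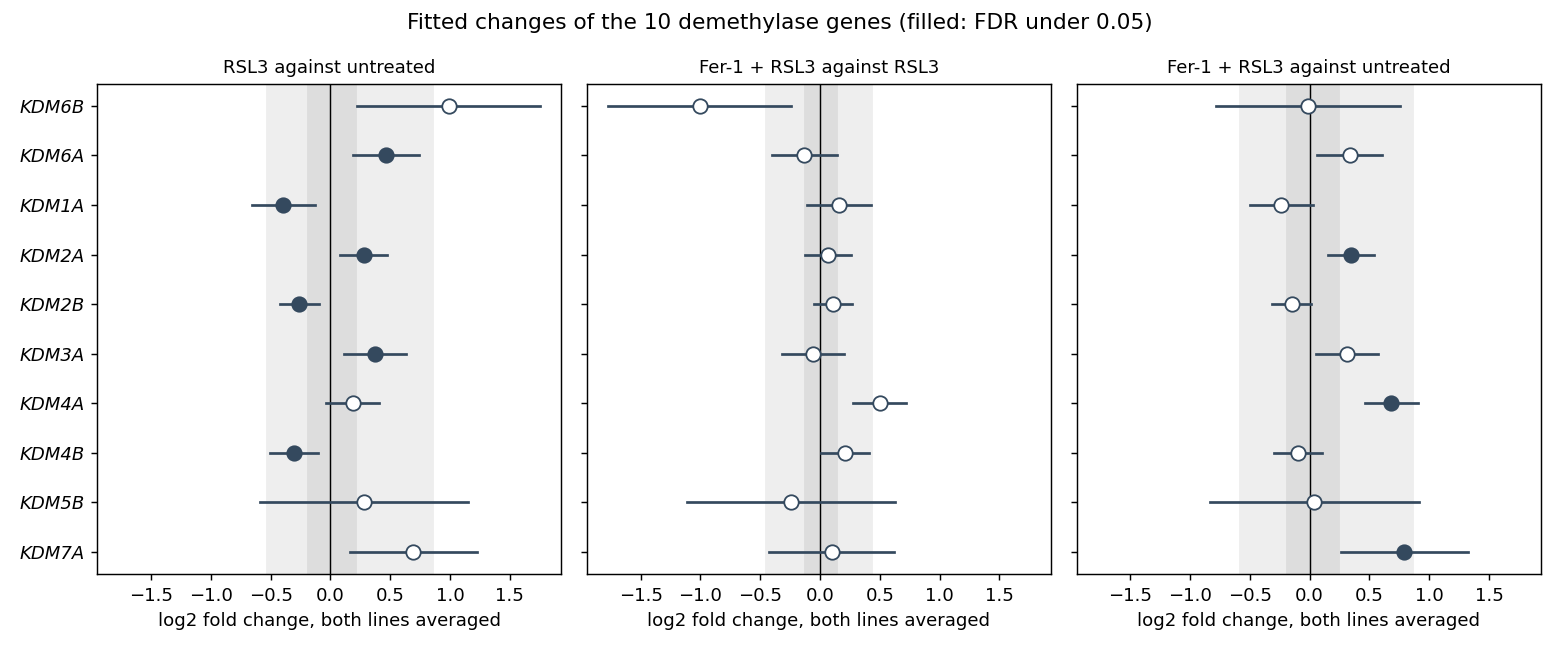
Log2 fold changes averaged over both lines (x axis) of the 10 demethylase genes (y axis), with 95% intervals from the fit, for RSL3 against untreated, Fer-1 + RSL3 against RSL3 and Fer-1 + RSL3 against untreated. Grey bands hold the middle 50% and 90% of all genes tested and filled points have an FDR under 0.05: 6 on the left, 0 in the middle and 3 on the right, where KDM4A stands at 0.68.

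Without treatment, 1 of the 10 genes differed between the lines (background 10.5%). KDM6A was at 64.1 to 83.3 CPM in MM1R and at 39.7 to 43.2 CPM in MM1S, with no overlap and a log2 fold change of 0.80 (SE 0.18, FDR = 0.0109). The 6 treated MM1R libraries (73.4 to 113 CPM) stood against 43.4 to 75.2 CPM in the treated MM1S libraries. The 73.4 CPM is that of MM1R Fer-1 + RSL3 replicate 2, which stands apart, and the other 5 started at 87.4 CPM. The call was lost when untreated MM1S replicate 2 was left out (FDR = 0.0532). KDM5B was at 4.87 to 13.0 CPM in MM1R and 1.71 to 6.89 CPM in MM1S, a log2 fold change of 0.97 with a 95% interval of -0.27 to 2.20 (FDR = 0.334).

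Related genes were read from fixed lists, with RSL3 against untreated averaged over both lines, where 15.5% of all genes were called and the median was -0.0001. The passage block called 30.4% of all genes. DESeq2 called 2732 genes, against 2215 in the main fit, where 4313 genes had an unadjusted p under 0.05. Of 13 genes tested from a list of other histone lysine demethylases and related Jumonji proteins such as JMJD6, 0 were called. There were 4 at an unadjusted p under 0.05 and 3 called by DESeq2, and the median log2 fold change of the 13 was -0.16. With the passage block, 3 were called (background 30.4%), JMJD6 higher and KDM3B and PHF2 lower. KDM5A, a lysine 4 demethylase, was higher with Fer-1 and RSL3 than in untreated cells, by 0.37 (SE 0.11, FDR = 0.0245). Of 11 subunits of PRC2, the complex that places the mark removed by KDM6A and KDM6B, 0 were called, with 2 at an unadjusted p under 0.05 and 0 by DESeq2 (median -0.08). With the passage block, 1 was called (background 30.4%), SUZ12, which was lower.

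In the complexes that hold a demethylase, 1 or 2 partners each were called. In the KMT2C/KMT2D complexes (9 genes tested, median -0.11), ASH2L, a core subunit, rose by 0.28 (SE 0.08, FDR = 0.0228), and PAXIP1, which also serves in DNA damage signalling, had a log2 fold change of -0.59 (SE 0.15, FDR = 0.0136). In CoREST (9 tested, median -0.20), the deacetylase HDAC2 (-0.30, SE 0.10, FDR = 0.0424) and HMG20B (-0.20, SE 0.06, FDR = 0.0442) fell, as did KDM1A. In PRC1.1 (8 tested, median -0.02), the corepressor BCORL1 fell in MM1R (-0.78, SE 0.12, FDR = 0.00372), in MM1S (-0.82, SE 0.12, FDR = 0.00252) and averaged (-0.80, SE 0.08, FDR = 2.72e-05), and it was the 1 gene called there without the block. With the passage block (background 30.4%), WDR5 in the KMT2C/KMT2D complexes and HDAC1 in CoREST were also called. In PRC1.1 3 genes were called with it, SKP1 higher and BCOR and BCORL1 lower.

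Of 17 other histone lysine methyltransferases tested, 4 were called and all 4 were lower, against 0 higher (median -0.24). They were KMT2B (log2 fold change -0.44, SE 0.08, FDR = 0.00188) and SETD1A (-0.41, SE 0.10, FDR = 0.0143), which methylate lysine 4, DOT1L (-0.43, SE 0.10, FDR = 0.0102), which methylates lysine 79, and NSD1 (-0.35, SE 0.10, FDR = 0.0236), which methylates lysine 36. With the passage block 10 were called, all lower (background 30.4% in both directions). Of 11 other dioxygenases that use iron and 2-oxoglutarate, the collagen prolyl hydroxylase P4HA2 was the 1 called, with a log2 fold change of 1.50 (SE 0.31, FDR = 0.00452), and the median was -0.06. The passage block called 4 of them (TET1, ALKBH5, P4HA2 and PHYH, 2 higher and 2 lower, background 30.4%), and DESeq2 4 (1 higher and 3 lower). Without MM1S RSL3 replicate 1 and MM1R Fer-1 + RSL3 replicate 2, the calls were 0 of 13 genes of the demethylase list, 0 of 11 PRC2 subunits, 2 of 9 in the KMT2C/KMT2D complexes, 1 of 9 in CoREST, 1 of 8 in PRC1.1, 3 of 17 methyltransferases and 1 of 11 dioxygenases. In that fit 1708 genes were called in all, against 2215 with all libraries.

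**Figure D4:**
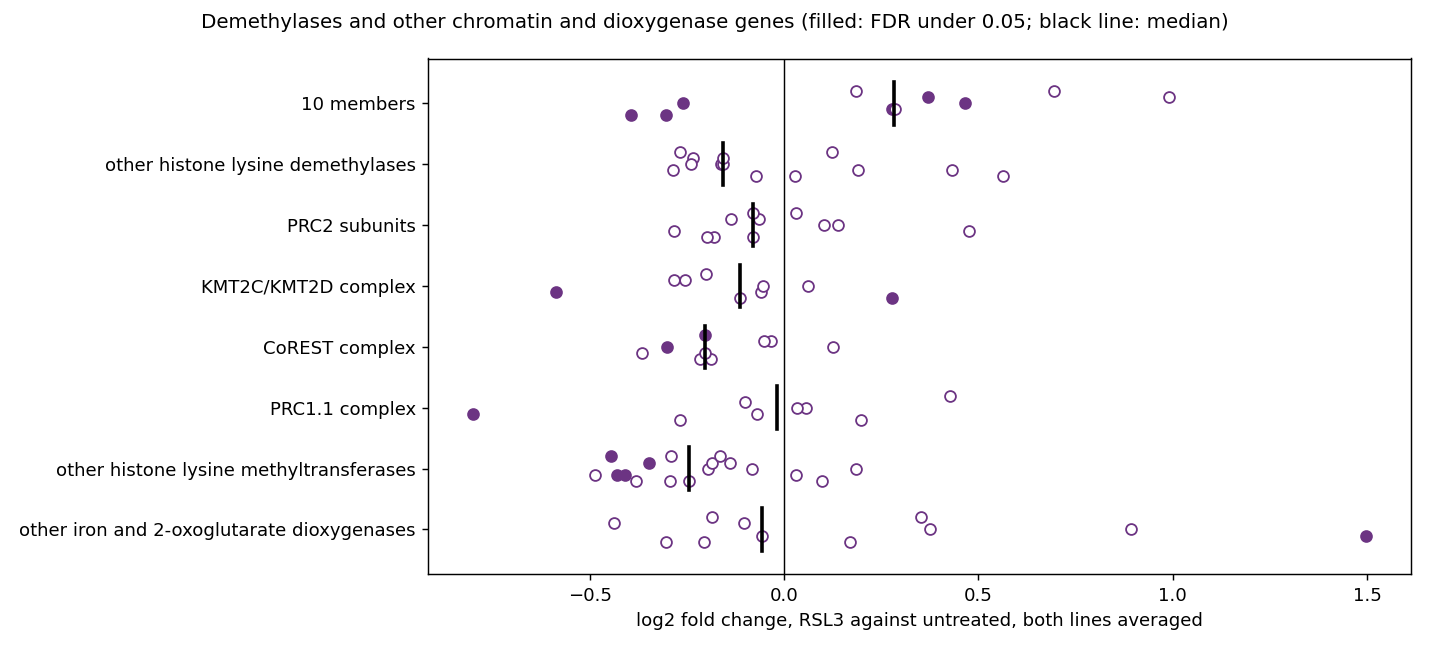
Log2 fold change with RSL3 averaged over both lines (x axis) of the 10 demethylase genes and of 7 lists of related genes (y axis), with 1 point per gene, filled where the FDR is under 0.05, and the median as a black line. Filled points lie on both sides of 0 among the 10 genes, and the 4 of the methyltransferases all lie below it.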

How the data were processed

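RNA of 18 libraries of MM1R and MM1S cells was sequenced by the authors in pairs of 50 bp reads. Per the labels, reads were checked with FastQC 0.11.5 and aligned to hg19 with STAR 2.7.3a, and DESeq2 is named. The counting tool, the annotation and the use of strand are not given in the sources used here. The authors deposited raw read counts for 43735 genes, which were used here, and for 29553 genes a table of normalized signal, which is the count divided by a size factor of the library (0.834 to 1.08). The depth was 17635438 to 19368343 counts per library, and its counting error enters the spread between libraries that the tests use.

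Genes were filtered with filterByExpr (minimum count 10), scaled with TMM and fitted with edgeR 4.0.16 (R 4.3.3) in 1 model of 6 group means with 12 residual degrees of freedom. Contrasts were tested with the quasi-likelihood test and Benjamini-Hochberg adjustment over all 14281 genes. Within-passage ratios used log2 CPM with a prior count of 2. Replicates are passages of a culture, so p-values measure the spread between passages. Libraries of the same passage deviated together, with a median correlation of 0.250 in MM1R (0.0338 to 0.516, 9 pairs) and of 0.416 in MM1S (0.216 to 0.681, 9 pairs), and the labels give the shared passage, so a passage block (8 residual degrees of freedom) was an alternative. No libraries of a group were duplicates (chi-square per degree of freedom of 7.59 or more). Alternatives were DESeq2 1.42.0, RLE scaling, no or a stricter filter (minimum count 50), only the groups compared, limma 3.58.1 on the authors' normalized values (pseudocount 1) and leaving out each library. Simulated data with known changes served only to check the steps. They had no passage effect and larger changes than the members called for RSL3, so they do not bear on those calls. A fit without both libraries that stand apart was chosen after seeing the data. Positions were joined by symbol to an annotation of hg19.

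The 10 genes and the 9 gene lists were chosen with earlier results of these data known. The genes named are the 10 demethylases, NR3C1, up to 4 genes of each list with the smallest FDR among those called, and the 5 genes whose pattern is most like that of KDM6B. KDM5A, CD27, other markers and the list genes called with the passage block alone were named after their values were seen. A marker gene of the lists is not reported here.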

Additional observations from a re-analysis of the deposited data

How the results depend on the processing

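With the replicate block, 6 of the 10 demethylases were called in MM1R and 2 in MM1S for RSL3 against untreated (0 and 0 without it), 1 for Fer-1 + RSL3 against RSL3 averaged over the lines (0 without it), and 4 in MM1R, 2 in MM1S and 6 averaged for Fer-1 + RSL3 against untreated (1, 1 and 3 without it). In the same order, 13.1, 13.3, 2.37, 22.2, 14.7 and 33.3% of all genes were called with the block, and 3.36, 3.67, 0.119, 9.22, 4.61 and 19% without it. The block changed no other member count by over 1.5 times, and it could not be fitted for MM1R against MM1S, where each passage lies in 1 line. DESeq2 called 1 for RSL3 in MM1S, 1 for Fer-1 + RSL3 against RSL3 averaged and 2 for Fer-1 + RSL3 against untreated in MM1R. Over all genes it called 1032, 230 and 1850 there, against 524, 17 and 1317 in the main fit. Without a filter on low counts, 3 were called for RSL3 in MM1R and 1 in MM1S, 1 in MM1R, 1 in MM1S and 2 averaged for Fer-1 + RSL3 against RSL3, 2 for Fer-1 + RSL3 against untreated in MM1R and 2 between the untreated lines. Over all genes, in this order, 1014, 1214, 271, 308, 571, 1543 and 1852 were called, against 480, 524, 0, 0, 17, 1317 and 1498 in the main fit. Among the members, KDM6B was called without the filter for RSL3 and for Fer-1 + RSL3 against RSL3, in both lines and averaged. With only the groups compared, 1 was called for RSL3 averaged, and 2 in MM1R and 5 averaged for Fer-1 + RSL3 against untreated. Calls over all genes were then 1660, 1318 and 3218, against 2215, 1317 and 2715 in the main fit. Without both libraries that stand apart, 2 were called for RSL3 in MM1R and 2 averaged, and 2 for Fer-1 + RSL3 against untreated in MM1R. Calls over all genes were then 1153, 1708 and 1252, against 480, 2215 and 1317 in the main fit. RLE scaling, the stricter filter and the authors' normalized values moved no count by over 1.5 times, and the number of genes on one side in all 6 passages was 6 under each of the 4 scalings tried. The cause of these shifts was not tested.

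With 1 library left out, the counts ranged from 0 to 3 (RSL3, MM1R), 0 to 1 (RSL3, MM1S), 0 to 8 (RSL3, averaged), 0 to 1 (Fer-1 + RSL3 against RSL3, averaged), 1 to 2, 0 to 1 and 2 to 5 (Fer-1 + RSL3 against untreated in MM1R, in MM1S and averaged) and 0 to 1 (untreated lines), and stayed at 0 for the rest. The highest value in MM1R, 3, came without MM1S RSL3 replicate 1, and the 8 without MM1S RSL3 replicate 3. Both stand here without their counts over all genes. Calls over all genes moved as well, for RSL3 averaged to 1405 without MM1R RSL3 replicate 1, against 2215 with all libraries.

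Direction turned, with 1 library left out, for 21 values of genes that were not called, in fits that ignore the passage. KDM5B, whose level differed between passages, ranged from -0.052 to 1.04 (RSL3, MM1R), -0.52 to 0.73 (RSL3, MM1S), -0.0212 to 0.60 (RSL3, averaged), -0.52 to 0.0619 (Fer-1 + RSL3 against RSL3, averaged) and -0.23 to 0.35 (Fer-1 + RSL3 against untreated, averaged). KDM4A ranged from -0.0463 to 0.26 (RSL3, MM1S). For Fer-1 + RSL3 against RSL3, KDM6A ranged from -0.21 to 0.0006, KDM3A from -0.13 to 0.0495 and KDM7A from -0.18 to 0.23, and for Fer-1 + RSL3 against untreated, KDM6B ranged from -0.14 to 0.13. Without both libraries that stand apart, KDM5B was at -0.52 (RSL3, MM1S), -0.0211 (RSL3, averaged) and 0.13 (Fer-1 + RSL3 against RSL3), KDM6A at 0.0702 and KDM3A at 0.0292 (Fer-1 + RSL3 against RSL3). Of the other values for single genes, leaving out 1 library kept direction and call for 845, gained a call for 15 and lost it for 73, and the remaining alternatives did so for 369, 33 and 16.

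With 3 libraries a group, differences between the lines that lie inside the intervals given could not be seen. Histone marks and viability were not analysed here, and reads shared with overlapping genes could not be separated.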
